A study of Morus alba var. atropurpurea with 12 samples.

Results

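Mulberry is a woody crop, here the cultivar Yuesang10 of Morus alba var. atropurpurea. Its roots kept in nutrient solution with 10 mM CdCl2 were compared with roots kept in the same solution without cadmium. The comparison rests on 6 of the 12 libraries of the series, chosen by their sample titles: 3 from roots at 10 mM cadmium and 3 from non-treated control roots. The other 6 libraries, 3 at 5 mM and 3 at 20 mM, enter through the shared estimate of the spread. They also count in the filter that set which transcripts were tested. All plants were seedlings raised in soil for 3 months, cut back to 10 cm of shoot and 2 cm of root, and held in Hoagland solution for 3 days before cadmium was added for 20 days. Each sample is labelled root, but the series text speaks of fruit, and the tissue is named here as on the samples. Doses are printed in mM as labelled; they are high for plants in solution, and the files cannot show whether the unit is right. The treatment text also speaks of 6 groups but names only these concentrations and a control, which make up the 4 groups here. Treated and control plants share the cutting of shoots and roots. The labels do not say how many plants make up a library, nor whether replicates are different plants. The p-values therefore reflect the spread between these libraries alone, and that spread may be technical.

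Cadmium is a toxic metal without a known role in land plants, and it enters root cells largely through carriers of iron, zinc, manganese and calcium. Inside the cell it is bound by sulfur-rich peptides, the phytochelatins made from glutathione and the metallothioneins, and much of it is stored in the vacuole. It displaces other metals from proteins, gives rise to reactive oxygen, and slows root growth. The tables identify transcripts by RefSeq-style XM numbers only and pair none with a gene name, so the results below are about named transcripts and not about these pathways, and the labelled tissue was not checked against root markers here. In whole roots, fewer cells of a type and less RNA per cell cannot be told apart.

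The values are FPKM, fragments per kilobase of transcript relative to all mapped fragments, so transcripts of different lengths are on a common scale. The 10 mM libraries listed 19695, 19930 and 19780 transcripts above 0, and the control libraries 19921, 19381 and 20001. The worth of 1 read, estimated from steps between low values and relative to the average of the 12 libraries, was 0.945, 1.004 and 0.962 at 10 mM, against 1.04, 1.06 and 1.06 in control, so the treated libraries were read slightly deeper. The number of reads is unknown. The median log2(FPKM + 1) of the tested transcripts was 3.65, 3.62 and 3.57 at 10 mM against 3.59, 3.30 and 3.58 in control, where replicate 2 was the low library.

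Of 22727 transcripts listed in any library, 17782 reached 1 FPKM in at least 3 of the 12 libraries and were tested with limma on log2(FPKM + 1). At 10 mM, 17 transcripts rose and 6 fell against control at a Benjamini-Hochberg adjusted p under 0.05, which is 0.129% of those tested, 0.0956% higher and 0.0337% lower. Each of the 23 changed by at least 1 log2 unit. Their median log2 change was 1.46 upward and -2.09 downward, beside 0.09 over all tested transcripts, whose interquartile range ran from -0.20 to 0.38. A change of at least 1 log2 unit was measured in 1036 transcripts, 591 upward and 445 downward, so a change of that size was far more often measured than called. Without adjustment, 1877 transcripts were higher and 883 lower at p under 0.05. After the libraries were scaled to a common median the median change of all transcripts became -0.03, a shift of -0.12, and 9 were called higher and 11 lower. With quantile normalization the split was 15 and 15, so which direction held more calls depended on scaling.

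Most of the called transcripts were well expressed. Among the 17 that rose, the mean of the higher group was under 5 FPKM in 1, from 5 to 20 FPKM in 5, from 20 to 100 FPKM in 10 and at least 100 FPKM in 1. Among the 6 that fell the same classes held 1, 0, 2 and 3. The tested transcripts held 5313, 5288, 5041 and 2140 in these classes. The log2(FPKM + 1) scale understates changes of low transcripts, which favours well expressed ones, so these counts are a description. In every one of the 23 the 3 treated values lay outside the 3 control values, a pattern also seen in 18.8% of all tested transcripts, in 2231 upward and in 1119 downward.

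**Figure D1:**
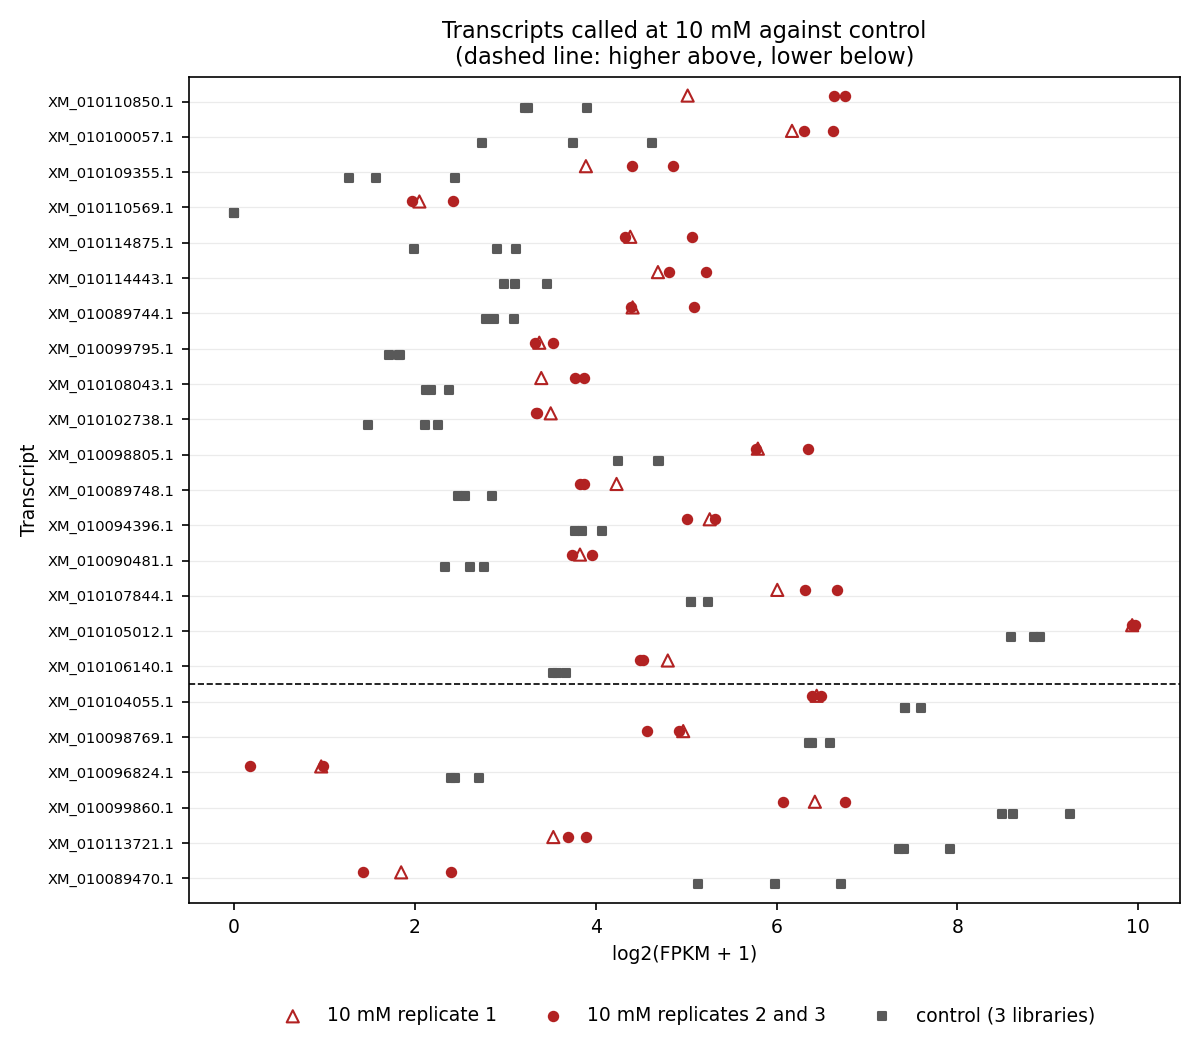
Level of each of the 23 called transcripts on the log2(FPKM + 1) scale in the 3 libraries at 10 mM (red; open triangle for replicate 1, filled circles for replicates 2 and 3) and the 3 control libraries (grey squares). Treated and control points do not overlap in any row, and in XM_010110850.1 the treated replicate 1 lies well below replicates 2 and 3.

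In the 6 transcripts that fell, replicate 1 had from 80.1% to 107% of the log2 change of replicates 2 and 3. XM_010089470.1 had 2.60, 4.27 and 1.68 FPKM at 10 mM, against 62.2, 104 and 34.1 FPKM in control. Its treated values were all far below the lowest control, and the log2 change was -4.05 ± 0.39 (SE, n = 3 each, limma adjusted p = 0.00386). The call held in each of the 12 fits that left out 1 library. XM_010113721.1 had 10.6, 13.9 and 11.97 FPKM at 10 mM, against 163, 169 and 240 FPKM in control. The treated values lay close together and far below the lowest control, with a log2 change of -3.85 ± 0.61 (adjusted p = 0.0428). This call was kept only without 20 mM replicate 1 or without 20 mM replicate 2 and was lost in the other 10 such fits (adjusted p 0.0621 to 0.137) and in a fit blocked by replicate number (adjusted p = 0.0613).

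A pair of further falling transcripts was singled out after their values were seen. XM_010099860.1, the next largest fall, had 84.9, 66.2 and 107 FPKM at 10 mM, against 360, 391.96 and 606 FPKM in control, a log2 change of -2.37 ± 0.36 (adjusted p = 0.0428). It was abundant in every library and the groups stayed apart. XM_010098769.1 had 30.3, 22.7 and 29.3 FPKM at 10 mM, against 83.2, 80.8 and 95.2 FPKM in control, with little spread in either group (log2 change -1.63 ± 0.25, adjusted p = 0.0428). The first kept its call only without 5 mM replicate 1 or 20 mM replicate 2 (adjusted p 0.0513 to 0.131 in the other 10 fits). The second kept it without replicate 1 at 5 or 10 mM and without replicates 2 or 3 at 20 mM only (0.0595 to 0.136 in the other 8). With the replicate block both missed the threshold (adjusted p = 0.0613).

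Among the transcripts that rose, those with the largest changes differed in how evenly the treated libraries took part. XM_010110850.1 had 31.4, 98.7 and 107 FPKM at 10 mM, against 8.49, 8.31 and 14.0 FPKM in control. Replicate 1 was above every control but short of the other treated libraries, its log2 difference from the control mean being 48.2% of theirs. The log2 change was 2.68 ± 0.38 (adjusted p = 0.0395). XM_010100057.1 had 71.1, 77.8 and 97.8 FPKM at 10 mM, against 5.69, 23.6 and 12.5 FPKM in control, so that here the spread lay in the controls (log2 change 2.66 ± 0.39, adjusted p = 0.0428). XM_010110850.1 kept its call without control replicate 3, replicate 1 at 5 or 10 mM, or replicate 2 at 20 mM, and XM_010100057.1 without control replicate 2 or the same 3 treated libraries, and neither did in the other 8 fits (adjusted p 0.0513 to 0.136 over the fits in which either was lost).

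XM_010109355.1 had 13.8, 28.0 and 20.1 FPKM at 10 mM, against 1.41, 1.96 and 4.46 FPKM in control, and the groups lay well apart (log2 change 2.62 ± 0.33, adjusted p = 0.0188). Its call was lost without replicates 1 or 2 of the control, replicate 2 at 5 mM, or replicates 2 or 3 at 10 mM (adjusted p 0.0601 to 0.114). A further 3 were singled out after their values were seen. XM_010110569.1 was listed in no control library and had 3.14, 4.36 and 2.91 FPKM at 10 mM (adjusted p = 0.00386), and it was called in each of the 12 fits without 1 library. XM_010105012.1, the most abundant called transcript, had 977, 979 and 996 FPKM at 10 mM, against 481, 386 and 460 FPKM in control. Its treated libraries spanned a narrower range than its controls, and the log2 change was 1.16 ± 0.16 (adjusted p = 0.0395), lost in 8 of the 12 fits, those without any 1 control, replicates 2 or 3 at 5 or 10 mM, or replicate 1 at 20 mM (0.0571 to 0.134), and with the replicate block (0.0613). XM_010106140.1 had 26.8, 22.1 and 21.4 FPKM at 10 mM, against 10.6, 10.9 and 11.8 FPKM in control, with replicate 1 the highest (log2 change 1.01 ± 0.16, adjusted p = 0.0428). Leaving out any 1 of the 12 libraries ended its call (0.0518 to 0.136), as did the replicate block (0.0687).

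The other 11 transcripts that rose had log2 changes between 1.21 and 1.91, and their treated libraries lay above all controls. Of these, XM_010099795.1 kept its call in 7 of the 12 fits without 1 library. The rest kept theirs in 0 (XM_010089748.1) to 3 (XM_010089744.1) of them. With the replicate block only XM_010099795.1 and XM_010114875.1 stayed called (limma adjusted p = 0.0438 each). These 4 are named after their values were seen. The other 2 that fell are named after their values were seen, to complete the 6. XM_010096824.1 had 0.95, 0.13 and 0.97 FPKM at 10 mM, against 5.53, 4.29 and 4.44 FPKM in control (log2 change -1.81 ± 0.28, adjusted p = 0.0428). XM_010104055.1 had 86.0, 82.8 and 88.9 FPKM at 10 mM, against 193, 171 and 171 FPKM in control (log2 change -1.04 ± 0.15, adjusted p = 0.0395). In the first, treated replicate 2 was the lowest library, and the second varied little within either group. They kept their calls in 2 and 5 of the 12 fits without 1 library, and in neither case with the replicate block (adjusted p 0.0604 and 0.0613).

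Presence and absence added few transcripts. Of those tested, 14 were listed in all 3 libraries at 10 mM and in no control, at mean levels of 0.703 to 14.8 FPKM with a median of 1.36 FPKM, and XM_010110569.1 was the 1 of them that was called. The lowest adjusted p of the rest was 0.0864, and 12 of the 14 had p under 0.05 without adjustment. In the other direction, 12 were listed in no library at 10 mM and in every control, where their means ran from 0.833 to 7.04 FPKM, and 0 of them were called with limma, the lowest adjusted p being 0.0690, with 10 at p under 0.05 without adjustment. Over all tested transcripts 15.5% had such a p, but transcripts chosen for presence in only 1 group had to differ, so these counts are a description. Read counts are not given, but low values moved in steps, and some of these transcripts may rest on single reads in a library. In XM_010105614.1, for example, the controls had 1.24, 0.63 and 0.63 FPKM. The controls were also read slightly less deeply than the treated libraries.

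The size of the called list changed with single libraries, also with those at 5 and 20 mM. In these fits the tested transcripts stayed the same, so the libraries at 5 and 20 mM acted only through the spread. Many of the 23 limma adjusted p-values lay close under the threshold, from 0.0395 to 0.0496, with several tied at 0.0428. The 23 calls became 2 without control replicate 1, 5 without control replicate 2, 17 without control replicate 3, 15, 2 and 4 without 5 mM replicates 1, 2 and 3, 43, 2 and 3 without 10 mM replicates 1, 2 and 3, and 6, 27 and 10 without 20 mM replicates 1, 2 and 3. Each such fit has fewer libraries. XM_010089470.1 and XM_010110569.1 were called in all 12, 4 of the 23 in at least 6, and XM_010106140.1 and XM_010089748.1 in 0, with adjusted p-values up to 0.164 over the 23. All 23 kept their sign in every fit, which was bound to happen, since their treated and control values did not overlap. Deviations from the group mean correlated at 0.268, 0.170 and 0.176 between 10 mM and control libraries of the same number. Between different numbers the correlations ran from -0.182 to 0.00797. Deviations cancel within a group, so these values are not independent. The replicate block and a fit on the 6 libraries alone both left fewer residual degrees of freedom than the main fit. How many calls were lost through this was not tested. A fit with the replicate block called 7 higher and 1 lower. Of the 23, 7 were among these, XM_010089470.1 and 6 that rose, and the other 16 had adjusted p-values up to 0.0691. Fitted on the 6 libraries alone, limma called 0 transcripts higher and 1 lower, XM_010113721.1 (adjusted p = 0.00317, within 0.000349 to 0.137 over its alternatives), so that the other 22 lost their calls, while 1383 were higher and 758 lower at p under 0.05 without adjustment.

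**Figure D2:**
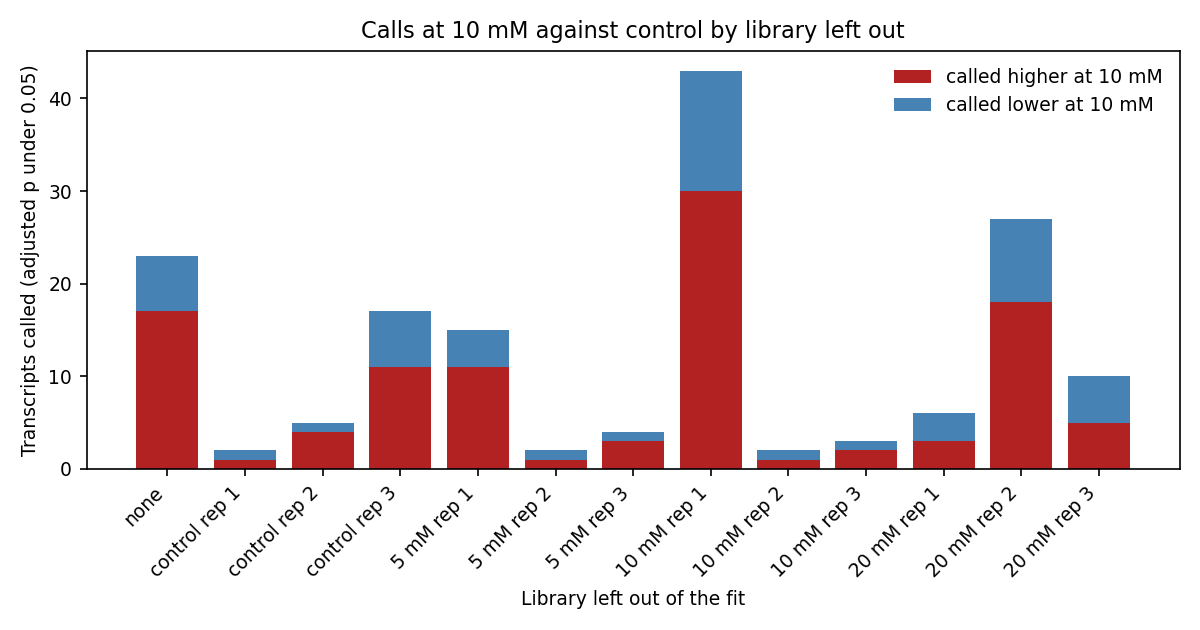
Number of transcripts called at 10 mM against control (red for higher, blue for lower, stacked) when no library or each of the 12 libraries was left out of the fit. The count was 23 with all libraries and 43 without 10 mM replicate 1, while without replicates 2 or 3 at 10 mM it was 2 and 3.

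Replicates 1 and 2 were the pair of 10 mM libraries that differed most. The root mean square difference over the tested transcripts, in log2 units, was 0.849 between replicates 1 and 2, 0.695 between 1 and 3 and 0.652 between 2 and 3, where pairs of controls gave 0.693 to 0.759. Replicate 1 differed from single controls by 0.718 to 0.843, with a mean of 0.787 beside 0.772 for its own group, and the smallest of these was with control replicate 1, which carries the same number. It was closer to the 5 mM libraries (mean 0.729) than to the 20 mM libraries (mean 0.814). For replicate 2 these means were 0.790 and 0.737, the opposite order, and for replicate 3 they were 0.659 and 0.661.

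By other measures replicate 1 was not alone. At least 1 log2 unit above or below both other libraries of the group were 1240 transcripts in replicate 1 (6.97%), 963 in replicate 2 (5.42%) and 420 in replicate 3 (2.36%), while the controls gave 822, 1066 and 817. The weights that limma assigns from how closely a library follows its group mean were 0.533, 0.593 and 2.43 at 10 mM and 0.953, 0.511 and 0.944 in control, so replicates 1 and 2 at 10 mM and control replicate 2 were all weighted low. With these weights 190 transcripts were called, 127 higher and 63 lower, the 23 among them. By the worth of 1 read, replicate 1 was the deepest of the 6 libraries, and its 19695 listed transcripts lay within the range of the controls.

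Leaving replicate 1 out of the fit gave 30 transcripts called higher and 13 lower, 0.242% of those tested, of which 15 belonged to the 23. With the replicate block the same libraries gave 2 higher and 4 lower. Replicate 1 took no part in choosing these 43, but the same controls did, and a library without any change would also often lie beyond controls chosen in this way, so the counts that follow are a description. Replicate 1 lay beyond all 3 controls in the same direction in 25 of the 30 and in 11 of the 13. The sizes were smaller, with a median log2 difference from the control mean of 0.79 in replicate 1 for the 30, where replicates 2 and 3, on which the choice rested, had 1.77 and 1.73. For the 13 the medians were -1.05 in replicate 1 and -2.34 and -2.03 in replicates 2 and 3. Leaving out replicate 2 or replicate 3 gave 2 and 3 calls, and in each of them the library left out lay beyond all controls in the same direction.

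The same was counted among tested transcripts without regard to calls, again with shared controls and therefore as a description. Where replicates 2 and 3 both lay above every control (3536 transcripts), replicate 1 did so too in 63.1%, and where both lay below (2178) in 51.4%. For replicate 2 against the pair of replicates 1 and 3 the shares were 65.9% of 3385 and 54.2% of 2063. For replicate 3 against replicates 1 and 2 they were 71.6% of 3117 and 74.9% of 1493.

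**Figure D3:**
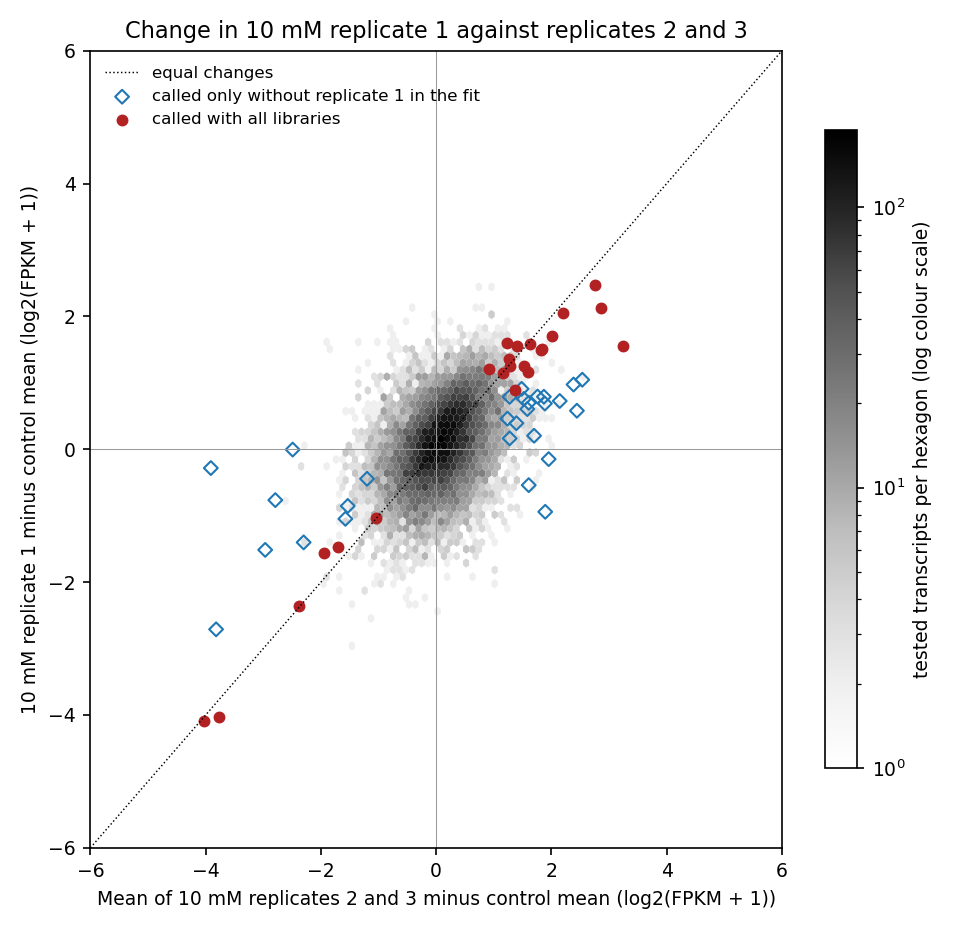
Difference from the control mean in 10 mM replicate 1 (y axis) against the mean of replicates 2 and 3 (x axis), both in log2(FPKM + 1) units, for the 17782 tested transcripts (grey hexagons), the 23 called with all libraries (red) and the 28 called only when replicate 1 was left out (blue diamonds). In the red points replicate 1 has from 48.2% (XM_010110850.1) to 132% of the change of the others, and in the blue points it has from -49.7% to 71.0%, with 3 of them changed in the opposite direction. The dotted line marks equal change.

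Of the 43, 28 were not among the 23, 19 higher and 9 lower. These are transcripts whose call ended when replicate 1 was added, so a small change in replicate 1 follows from how they were chosen, and their values are given as a description. In the 19, replicate 1 showed a median of 37.3% of the log2 change of replicates 2 and 3, ranging from -49.7% to 61.9%, and in the 9 a median of 51.1%, ranging from 0.171% to 71.0%. In all 28 replicate 1 had the smallest change of the 3 treated libraries. In the 11 rising transcripts called both ways the median was 82.2% and in the 4 falling ones 93.3%. The other 8 of the 23, 6 higher and 2 lower, missed the threshold without replicate 1 by little (adjusted p 0.0530 to 0.0734), and replicate 1 had from 82.2% to 132% of the change there.

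Among single transcripts, replicate 1 followed the others in part or stayed with the controls. XM_010104137.1 had 1.19, 5.09 and 5.20 FPKM at 10 mM, against 0.19 FPKM in control replicate 3, and it was not listed in the other 2 controls. Replicate 1 was above the controls with 41.3% of the log2 change, and the adjusted p was 0.0182 without replicate 1 and 0.0690 with it (0.0182 to 0.257 over its alternatives). XM_010112306.1 had 4, 1.86 and 0.88 FPKM at 10 mM, against 52.4, 52.0 and 11.4 FPKM in control, so that all 3 treated libraries were low (adjusted p = 0.0451 without replicate 1, 0.0550 with it, 0.0158 without control replicate 3, and 0.0158 to 0.234 over its alternatives). XM_010110548.1 had 11.4 FPKM in replicate 1 and was not listed in replicates 2 and 3 at 10 mM, against 7.60, 10.7 and 32.9 FPKM in control. Here replicate 1 sat within the controls (adjusted p = 0.0182 without it, 0.155 with it, 0.0182 to 0.374 over its alternatives).

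A further 2 were singled out after their values were seen because replicate 1 departed most. XM_010110379.1 had 12.8, 109 and 86.6 FPKM at 10 mM, against 22.8, 20.5 and 35.2 FPKM in control. Replicate 1 was below every control and the others above (adjusted p = 0.0358 without replicate 1, 0.481 with it, 0.0358 to 0.800 over its alternatives). XM_010092227.1 had 38.0, 5.18 and 6.85 FPKM at 10 mM, against 60.1, 27.8 and 33.1 FPKM in control, so that replicate 1 was at the control mean (adjusted p = 0.0223 without it, 0.192 with it, 0.0223 to 0.425 over its alternatives). Of the 43, replicate 1 was not beyond the controls in 7, and in 5 of these it lay inside their range. With the replicate block and without replicate 1, XM_010104137.1 (adjusted p = 0.0448) and XM_010110548.1 (0.0302) kept their calls, while XM_010112306.1 and XM_010110379.1 (0.0979 each) and XM_010092227.1 (0.0591) did not. What set replicate 1 apart was not tested.

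**Figure D4:**
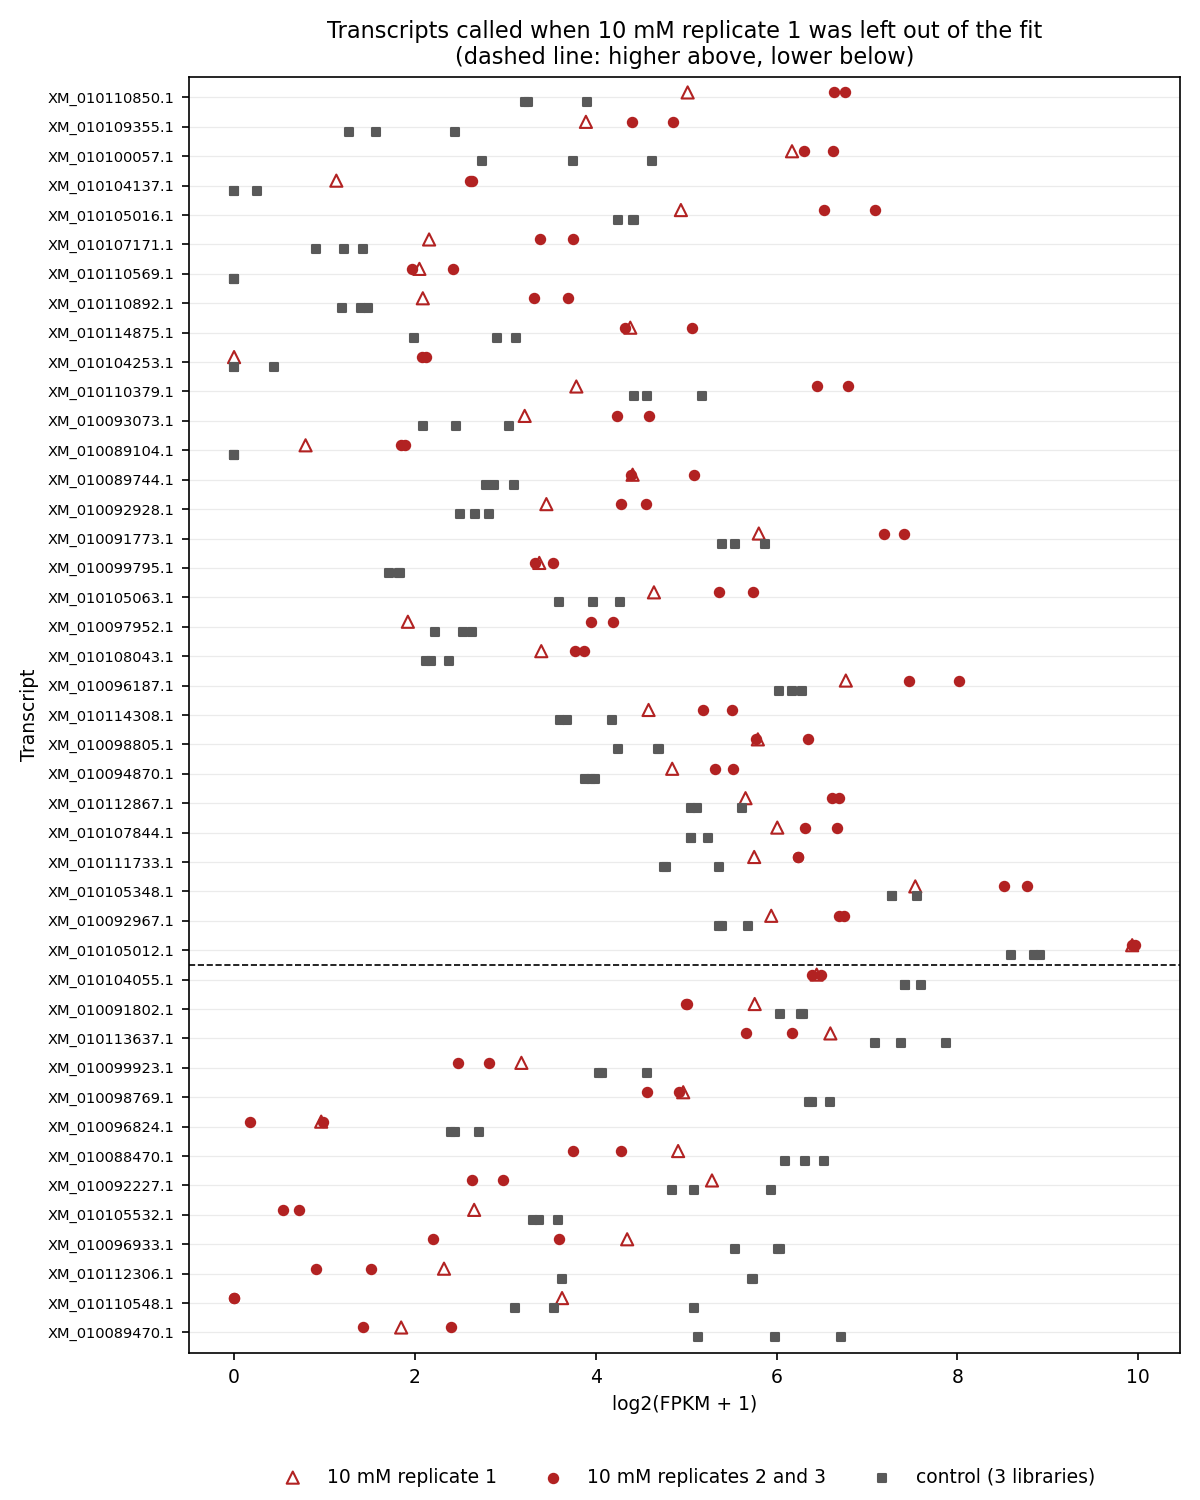
Level of each of the 43 transcripts called when 10 mM replicate 1 was left out, on the log2(FPKM + 1) scale, in replicate 1 (open triangles), replicates 2 and 3 (filled red circles) and the 3 control libraries (grey squares). In 36 of the 43 rows the triangle lies beyond all grey squares on the side of the red circles, mostly short of them.

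The levels of the 23 at the other doses are given for reference, with the same 3 controls behind every difference. The 17 that rose had a median log2 difference from control of 0.85 (range 0.19 to 1.97) at 5 mM. At 10 mM it was 1.46 (1.01 to 2.68), and at 20 mM it was 1.19 (0.54 to 2.79). The 6 that fell had a median of -0.20 (-0.90 to 0.49) at 5 mM. It was -2.09 (-4.05 to -1.04) at 10 mM and -2.35 (-5.14 to -0.61) at 20 mM. These transcripts were chosen for their change at 10 mM, which favours that dose in any such comparison. The size at 20 mM exceeded that at 10 mM in 4 of the 17 and 3 of the 6.

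XM_010099860.1 stood at 460, 915 and 567 FPKM in the 5 mM libraries and at 81.4, 36.6 and 85.6 FPKM in the 20 mM libraries. Its 5 mM libraries lay within or above the range of the controls, and its 20 mM libraries within or below that of the 10 mM libraries. XM_010105012.1 had 514, 514 and 484 FPKM in the 5 mM libraries, just above its controls, and 722, 719 and 877 FPKM in the 20 mM libraries, short of every 10 mM library. XM_010098769.1, singled out for this, had 41.8, 71.95 and 72.1 FPKM in the 5 mM libraries and 72, 56.0 and 43.4 FPKM in the 20 mM libraries, between the 10 mM and control levels at both doses.

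**Figure D5:**
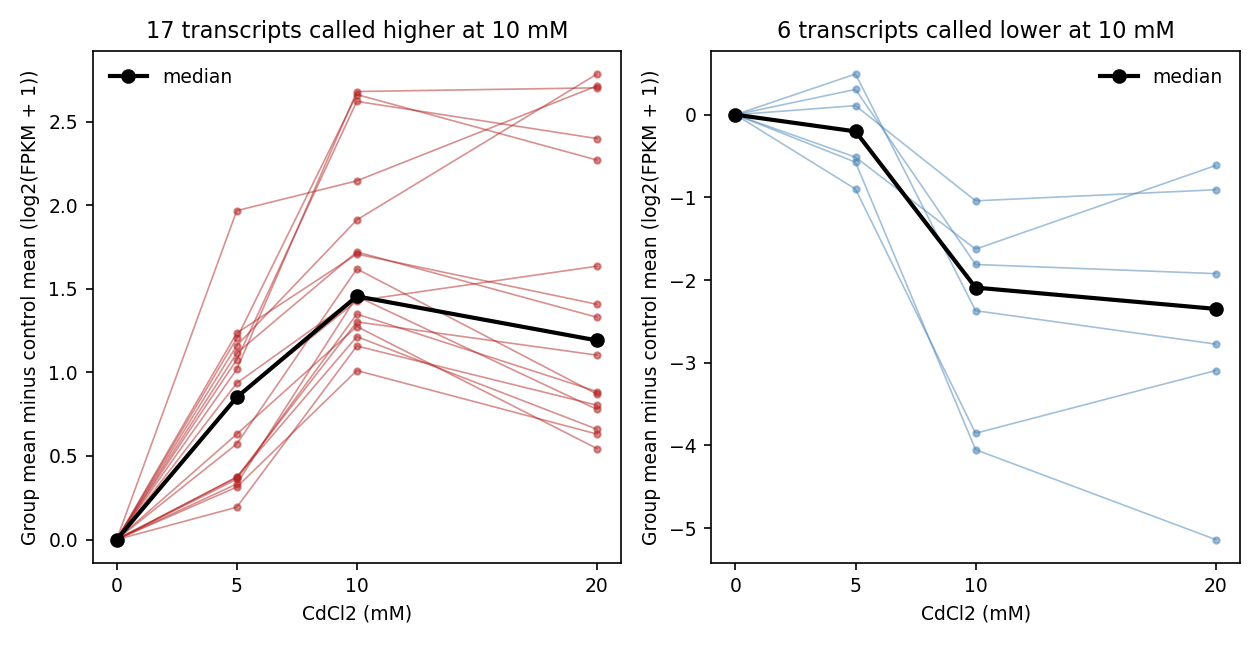
Group mean minus control mean on the log2(FPKM + 1) scale at 0, 5, 10 and 20 mM CdCl2 for the 17 transcripts called higher (left) and the 6 called lower (right) at 10 mM, with 1 thin line per transcript and the median in black. From 5 to 20 mM the median of the left panel is 0.85, 1.46 and 1.19, and that of the right panel is -0.20, -2.09 and -2.35.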

How the data were processed

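Messenger RNA of mulberry roots was sequenced in 12 libraries, 3 per group. The deposited tables, 1 for each library, have a column of gene identifiers, filled with XM transcript numbers, and a column of FPKM. How reads were aligned and counted, and on which build, is not given in the sources used here. Only values above 0 are in the tables, and a transcript missing from one was taken as 0. FPKM divides by library size and length, so that a few abundant transcripts can shift the rest. Near-identical transcripts that share reads are not marked.

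Groups and replicate numbers came from sample titles. With R 4.3.3 and limma 3.58.1, 4 group means were fitted to log2(FPKM + 1) over 12 libraries (8 residual degrees of freedom, mean-variance trend, no block), and 10 mM was set against control. Changes on this scale understate those of low transcripts. P-values are two-sided and were adjusted by the Benjamini-Hochberg method over all 17782 tested transcripts, those that reached 1 FPKM in 3 or more libraries. No count test was used, since FPKM are not counts. The worth of 1 read was estimated from 1090 transcripts with values in 4 to 9 libraries, none below 0.3 FPKM, where 83.6% of 7012 values, and 75.6% of the 3461 nearest to 2 or more reads, were whole multiples to within 0.1. The procedure was run on simulated data with known changes. The simulated noise was normal, independent between libraries and had the same spread in each, which the fit itself assumes. The simulation therefore does not bear on the likeness of same-numbered libraries or on library weights, and it is no support for the calls made here.

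The members and lists were chosen with earlier results of these data known. Lists of gene families set as patterns in product descriptions could not be applied without names. Named transcripts were at most 2 per direction with the largest log2 change among those called that averaged 5 FPKM or more in 1 group and no overlap between groups, first with all libraries and then without 10 mM replicate 1. The replicate numbers were checked for pairing: deviations from group means correlated, across transcripts, at 0.268, 0.170 and 0.176 for same-numbered 10 mM and control libraries. No label ties a number to a batch or day. No 2 of the 6 libraries held identical values. Alternatives changed the pseudocount, filter, scaling, moderation, library weights, block and libraries fitted, and left out each library in turn.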

Additional observations from a re-analysis of the deposited data

How the results depend on the processing

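The count of 23 transcripts called at 10 mM (17 higher, 6 lower) became 36 (26 and 10) with a pseudocount of 0.1, 6 (3 and 3) without a filter, 46 (30 and 16) when a mean of 5 FPKM was required, 4 (3 and 1) with robust moderation and no trend in the variance, 190 (127 and 63) with array weights, 8 (7 and 1) with the replicate block, 6 (2 and 4) with the replicate block and without 10 mM replicate 1, and 1 (0 and 1, by limma) with the 10 mM and control libraries alone. Median scaling gave 20 (9 and 11) and quantile normalization 30 (15 and 15), with 15 and 19 of the 23 among them. A minimum change of 1 log2 unit left 23, as it had to, since each of the 23 changed by at least that much. Leaving out 1 library in turn gave 2 to 43 calls, 1 to 30 higher and 1 to 13 lower. The cause of these differences was not tested. The fits without 1 library and the fit of 10 mM and control alone also had fewer libraries. The replicate block left fewer residual degrees of freedom, and the stricter filter left fewer transcripts. The log2 changes of 15 of the named transcripts, followed through these settings, reversed in 0 of their values. Of these values 221 stayed on the same side of the threshold, while 109 lost and 13 gained a call. Many settings could not reverse a change. Log2 changes were the same under the filters, the moderation, the replicate block with all libraries and the fit of 10 mM and control alone. They were also the same without a library at 5 or 20 mM. The minimum change reused the main fit and so could only add to the 221. Read counts are not given, so levels near 1 FPKM carry an error that was not estimated, and some may rest on single reads.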
